A study of Mus musculus with 4 samples.

Results

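The genes of the mitochondrial respiratory chain were followed as 2 gene sets in single T cells and B cells of mediastinal lymph nodes, the nodes that drain the lung. The first set was the 13 protein genes of the mitochondrial genome, whose symbols start with mt-. The second set was 92 nuclear genes with symbols starting Nduf, Sdha to Sdhd, Uqcr, Cox4 to Cox8 or Atp5, leaving out pseudogene names. Together they made 105 of the 28625 gene symbols in the count matrices. The nuclear set was grouped by symbol, so a gene's group can differ from the complex in which its product works. By these groups it held 7 core subunits, 31 accessory subunits and 7 assembly factors of complex I. It also held 4 genes of complex II, 8 of complex III, 18 of complex IV and 17 of complex V. Membership of a gene rested on its symbol, but the sets were chosen with earlier results of these data known.

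All mice had received 10 µg of an extract of the mould Alternaria with 25 µg of NP-OVA, a hapten joined to ovalbumin, through the nose, and nodes were taken on day 7. The sorted cells were then kept with PMA and ionomycin, which activate T cells past their receptor, for 30 min before capture, so no resting cells and no unimmunised mice were among the groups compared. The Tfh sort took TCRβ+ CD4+ CD44+ PD-1+ CXCR5+ cells from C57BL/6 mice and was captured with 10x v2 chemistry. The IL-4 reporter sort took TCRβ+ CD4+ CD44+ GFP+ cells from C57BL/6 4GET mice, in which GFP reports transcription of Il4, and was captured with 10x v3 chemistry. Each sort held 3 mice told apart by hashtag antibodies in 1 lane. Strain, chemistry and sequencing run changed together with the sort, cannot be told apart, and no test was made between sorts.

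Cell groups were defined within each mouse by unique molecular identifiers (UMIs), the tags that count single captured RNA molecules. Cycling T cells held 2 or more UMIs of Mki67 and Top2a together and were set against T cells with none. Il13+ T cells held 2 or more Il13 UMIs. Il4+ Il13- T cells held 2 or more Il4 UMIs and no Il13 UMI, and Il4- Il13- T cells held neither. Gata3+ Cxcr5- T cells held a Gata3 UMI and no Cxcr5 UMI, and the opposite defined Cxcr5+ Gata3- T cells. Foxp3+ T cells held a Foxp3 UMI and were set against T cells with none. B cells and T cells were told apart by their receptor genes.

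The respiratory chain passes electrons from NADH through complex I, or from succinate through complex II, to complex III, cytochrome c and complex IV, and the proton gradient this builds drives the ATP synthase, complex V. Mitochondrial DNA encodes core subunits of complexes I, III, IV and V, while complex II and all other subunits are nuclear, so the working complexes need both genomes. T cells are known to build up mitochondria and respiration when they are activated and divide.

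Of the reporter sort 4585 of 7646 barcodes passed the limits of 500 genes and 10% mt- UMIs, and 2772 barcodes were above the mt- limit. Of the Tfh sort 3916 of 3956 passed. Because the limit is set on the mt- set, the mt- shares given here are bounded by it. Among the reporter T cells, 380 had an mt- share of 8 to 10%, and 232 more had 10 to 12%, just outside it. For Tfh sort T cells 23 lay just inside and 6 just outside. A hashtag gave a mouse to 3780 and 3989 passing cells, of which 3189 and 3725 were T cells and 463 and 208 were B cells, although both sorts were gated on a T cell receptor. In B cells the B markers not used to define them (Cd74, H2-Aa, Ighm and others) summed to 53353 to 67817 counts per 1e+06 UMIs (CPM) in the Tfh sort, and the T markers not used (Cd4, Lck, Thy1 and others) to 154 to 226 CPM. In T cells of that sort the same T markers summed to 2455 to 2601 CPM and the B markers to 1358 to 1447 CPM. Both sorts shared 1 cell barcode.

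A stretch of mitochondrial DNA is printed because mt-Atp8 and mt-Atp6, which encode adjoining subunits of ATP synthase, overlap by 43 bases on the plus strand of the mitochondrial genome, chrM:7927-7969, GRCm38. Capitals mark the start codon of mt-Atp6 and the stop codon of mt-Atp8, read in different frames.
mt-Atp8 and mt-Atp6 overlap: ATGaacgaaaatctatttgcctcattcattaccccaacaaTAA
The genes mt-Nd4l and mt-Nd4 overlap by 7 bases in the same way. A UMI from the shared stretch could belong to either gene. Of the 13 mt- genes, mt-Nd6 is the one encoded on the other strand.

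Nuclear members were scattered over 19 chromosomes, 3 of them on X, in the 91 with an annotation record (Atp5sl had none under that symbol). Promoters of 73 of the 92 were found in RefSeq (GRCm38.p6), each taken as 250 bases before to 50 bases after the gene's start. Motifs were searched on both strands. No motif contains another, but AAG ends the ETS motif and opens the YY1 motif, so matches to both can overlap. The NRF1 palindrome (GCGC, AT and GCGC in a row) stood in 7 of the 73 (9.59%), against 0.977% of all 27025 promoters. The ETS motif CCGGAAG, the core bound by GABP, stood in 16 (21.9%), against 9.12%, and the YY1 motif AAGATGGC in 8 (11%), against 2.88%. The E-box CACGTG, bound by Myc, stood in 5 (6.85%), against 7.24%. The median share of G and C letters was 57.3% in the promoters of members, against 52.7% in all promoters, and its part in the motif shares was not tested. These matches are descriptions of letters and show no binding. Promoters are printed for 4 genes of the cycling comparison: Sdhd and Cox5a, which were higher in cycling cells, and Cox7a2l and Uqcrh, which were lower. Capitals mark the ETS motif as it reads on the printed strand. Sdhd lies on the minus strand at chr9:50603800-50604099, Cox5a on the plus strand at chr9:57520982-57521281, Cox7a2l on the minus strand at chr17:83514284-83514583 and Uqcrh on the minus strand at chr4:116075021-116075320.
Sdhd: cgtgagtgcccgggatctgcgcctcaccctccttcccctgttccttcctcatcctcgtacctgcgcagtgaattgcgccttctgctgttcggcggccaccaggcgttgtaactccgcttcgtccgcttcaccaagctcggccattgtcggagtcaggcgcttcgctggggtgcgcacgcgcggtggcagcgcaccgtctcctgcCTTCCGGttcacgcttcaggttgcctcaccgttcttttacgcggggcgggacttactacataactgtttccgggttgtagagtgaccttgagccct
Cox5a: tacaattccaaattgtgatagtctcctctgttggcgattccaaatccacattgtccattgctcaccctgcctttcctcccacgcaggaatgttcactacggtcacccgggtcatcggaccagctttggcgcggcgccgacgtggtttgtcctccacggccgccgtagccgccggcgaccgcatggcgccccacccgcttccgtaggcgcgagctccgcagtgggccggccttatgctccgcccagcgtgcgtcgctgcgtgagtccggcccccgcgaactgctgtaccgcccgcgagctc
Cox7a2l: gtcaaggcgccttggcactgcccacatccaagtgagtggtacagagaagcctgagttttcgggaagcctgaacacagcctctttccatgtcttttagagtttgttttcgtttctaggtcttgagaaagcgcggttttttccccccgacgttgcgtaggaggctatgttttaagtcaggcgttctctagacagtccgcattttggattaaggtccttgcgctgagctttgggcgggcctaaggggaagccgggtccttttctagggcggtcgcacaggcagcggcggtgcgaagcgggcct
Uqcrh: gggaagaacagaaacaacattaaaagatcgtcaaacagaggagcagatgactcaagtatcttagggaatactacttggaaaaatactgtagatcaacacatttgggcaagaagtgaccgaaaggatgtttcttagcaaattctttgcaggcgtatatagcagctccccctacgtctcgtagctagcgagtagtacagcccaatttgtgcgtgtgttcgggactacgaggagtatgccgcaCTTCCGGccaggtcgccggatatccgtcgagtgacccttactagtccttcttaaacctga
Sdhd and Uqcrh, a gene that was higher and a gene that was lower, had 1 ETS match each, and Cox5a and Cox7a2l had a match to none of the 4 motifs in this window.

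Over all T cells, the 13 mt- genes took 3.19%, 3.25% and 3.29% of UMIs in mice 1 to 3 of the Tfh sort, and the 92 nuclear genes took 2.73%, 2.75% and 2.80%. They took 5.12%, 5.02% and 5.08% (mt-) and 2.27%, 2.36% and 2.32% (nuclear) in the reporter sort. Levels below are counts of tagged molecules (CPM), with 1 tag per molecule near its 3′ end, and are not scaled by length. The most abundant mt- gene was mt-Atp6, a subunit of the proton channel of ATP synthase, with 8612 ± 194 CPM in the Tfh sort and 12763 ± 90.9 CPM in the reporter sort (SD, n = 3 mice). It had a UMI in 99.97% and 99.82% of cells. The catalytic core of complex IV followed, mt-Co3 with 7079 ± 166 and 10378 ± 186 CPM and mt-Co1, which holds the haem and copper site where oxygen is reduced, with 4754 ± 57.2 and 6322 ± 186 CPM. The lowest was mt-Nd6, a membrane subunit of complex I, with 8.19 ± 2.72 and 29.0 ± 3.08 CPM.

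The mt- genes kept no fixed proportions between the sorts. The second complex IV gene, mt-Co2, which takes electrons from cytochrome c, made up 7.76% of mt- UMIs in Tfh sort T cells and 15.6% in reporter T cells. The complex I genes mt-Nd2 and mt-Nd3 made up 1.90% and 0.498% for Tfh sort cells, against 5.30% and 1.55% for reporter cells. By contrast mt-Atp6 made up 26.5% and 25.2%. As the capture chemistry changed with the sort, what part of this came from the cells was not tested.

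Among nuclear members the level of the median gene was 239 CPM in Tfh sort T cells and 184 CPM in reporter T cells, and 69 of 92 were above 100 CPM in both. The highest was Cox4i1, the regulatory subunit of complex IV used in most tissues, with 1076 ± 17.3 and 881 ± 18.6 CPM. Next came Cox8a, the smallest complex IV subunit, with 960.3 ± 50.2 and 819 ± 2.95 CPM. By the mean of both sorts, then followed Atp5e of the ATP synthase rotor stalk with 925 ± 9.61 and 715 ± 9.24 CPM, Uqcrh, the hinge protein of complex III that sits at cytochrome c1, with 861 ± 10.6 and 746 ± 27.6 CPM, and Atp5b, the catalytic beta subunit, with 893 ± 29.0 and 640.2 ± 33.9 CPM. Within a sort the order differed: Atp5b stood above Uqcrh in the Tfh sort, and Uqcrh above Atp5e in the reporter sort, where Atp5h of the side stalk (682 ± 9.46 CPM) also stood above Atp5b. In the Tfh sort Cox8a and Atp5e did not differ beyond the spread of Cox8a, whereas Cox4i1 lay above both in each sort by more than its spread.

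The subunit isoforms known from muscle, heart, lung or testis were close to or at 0. No UMI of Cox7b2, Cox8b, Cox8c or Ndufa4l2 was found in any assigned cell, which allows a share of up to 0.0794% of Tfh sort cells and 0.0752% of reporter cells with a UMI (counting error only). The hypoxia-inducible Cox4i2 had 3 UMIs in each sort. Cox6a2, the muscle form, had 0 and 8 UMIs, the 8 of them in 2 cells. Cox7a1, a form of heart and muscle, reached 4.07 CPM in Tfh sort T cells and 2.2 CPM in reporter T cells, and Cox6b2, known from testis, 3.49 and 1.79 CPM.

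**Figure D1:**
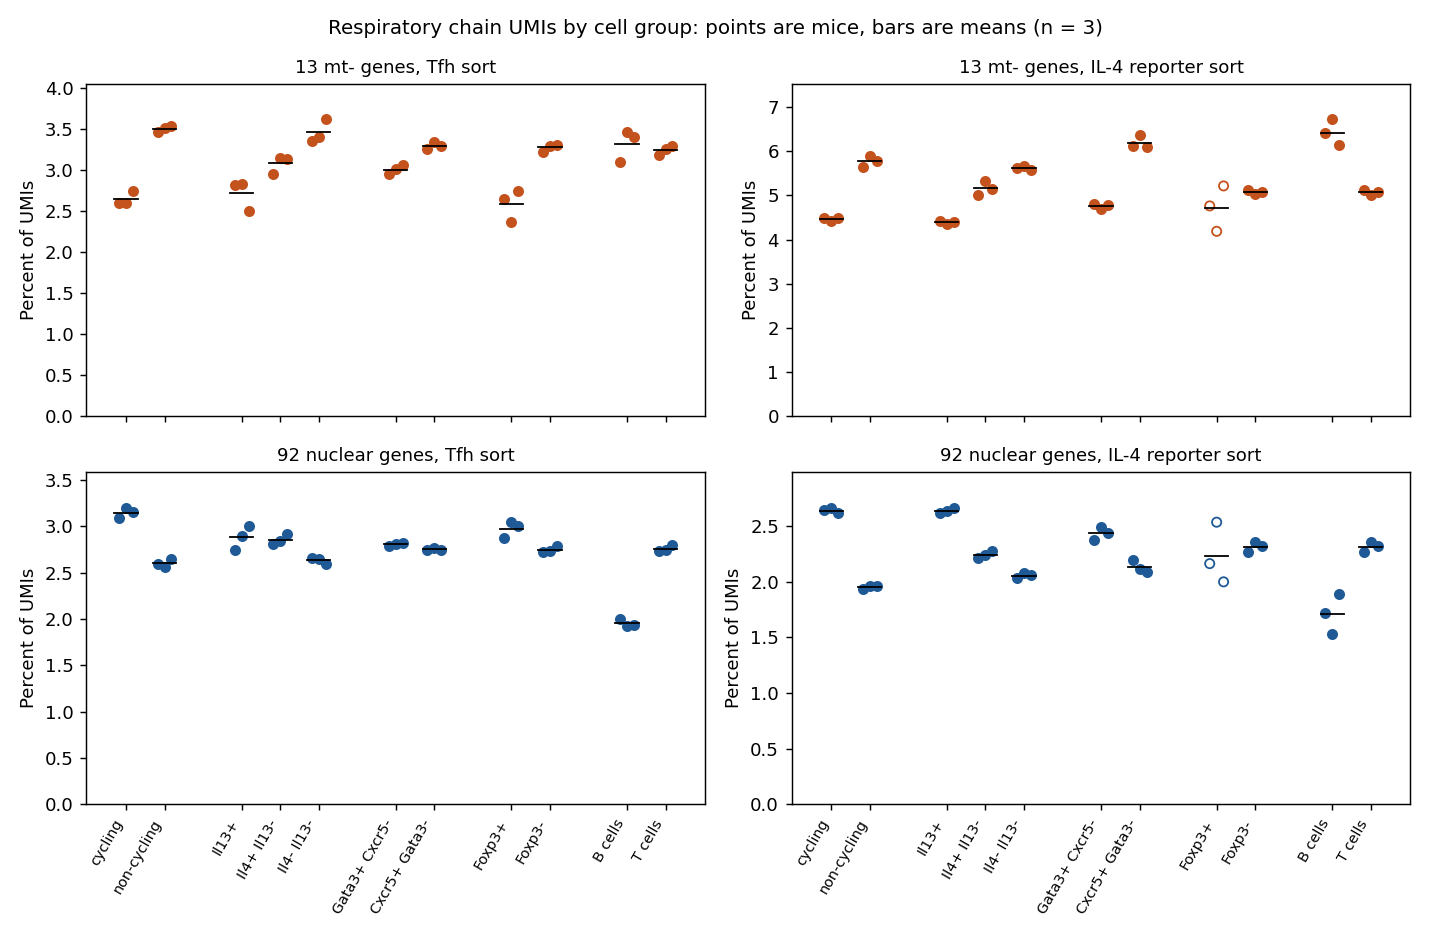
Percent of all UMIs in the 13 mt- genes (top) and the 92 nuclear genes (bottom) by cell group, for the Tfh sort (left) and the IL-4 reporter sort (right). Points are mice, bars are means of 3, and open points mark a group in which a sum had under 10 cells; cycling, Il13+, Gata3+ Cxcr5- and Foxp3+ T cells lie lower than the group set against them in the top panels of the Tfh sort, and B cells lie lowest in the bottom ones.

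Cell division had the most members called among the T cell comparisons in the fits of all cells, and the 2 gene sets went opposite ways. These counts do not rank the comparisons by size of change, as the power of the fits differed. In simulated data the cycling fits recovered 73% (Tfh sort) and 84% (reporter sort) of 2-fold changes, and the other T cell fits 27% to 63%. The mt- genes together took 2.60%, 2.59% and 2.74% of UMIs in cycling T cells of the Tfh sort, against 3.46%, 3.51% and 3.53% in non-cycling T cells of the same mice. The nuclear genes took 3.09%, 3.20% and 3.15% in cycling cells, against 2.59%, 2.57% and 2.65% in non-cycling cells. The reporter sort had 4.49%, 4.42% and 4.49% mt- UMIs in cycling cells, against 5.65%, 5.88% and 5.77% in non-cycling cells, and 2.64%, 2.66% and 2.61% nuclear UMIs in cycling cells, against 1.93%, 1.96% and 1.96%. The groups did not overlap in either set or either sort. The mt- to nuclear ratio was 0.841 ± 0.0297 in cycling cells and 1.35 ± 0.0198 in non-cycling cells of the Tfh sort (SD, n = 3), and 1.69 ± 0.0261 and 2.96 ± 0.0378 in the reporter sort.

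Gene by gene, edgeR's quasi-likelihood test on UMI sums per mouse, with the mouse as a block and Benjamini-Hochberg adjustment over all genes tested, called 55 of 83 tested nuclear members higher and 5 lower in cycling cells of the Tfh sort, with a median log2 change of 0.28. Over all 7785 genes tested, 23.9% were called higher and 22.4% lower, and the median was −0.02. Of the 13 mt- genes, 12 fell and none rose, with a median of −0.35. Among reporter T cells 72 of 85 nuclear members rose and 4 fell, median 0.57, against 32.8% higher and 32.3% lower among all 9941 genes, and 11 of 13 mt- genes fell with none higher, median −0.33. The genes called in both sorts were 54 of the nuclear ones that rose (54 of 55 and of 72), 4 of those that fell and 11 of the mt- genes.

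The mt- genes did not fall evenly. The level of mt-Co1 in the Tfh sort was 3380.5, 3218 and 3609.5 CPM in cycling cells, against 5365, 5387 and 5453 CPM in non-cycling cells, a log2 change of −0.67 ± 0.04 (SE; adjusted p = 7.7e-20, edgeR). The values of every cycling sum were below every non-cycling one. The complex I subunit gene mt-Nd3 fell further, with 100.4, 127 and 99.0 CPM against 176, 193 and 205 CPM (−0.78 ± 0.09, adjusted p = 3.0e-09), and mt-Nd4, a proton-pumping subunit, fell by 0.56. The remaining 9 that fell lay between −0.28 (mt-Atp8) and −0.51 (mt-Co3). Furthest in the reporter sort fell mt-Nd4 (−0.47 ± 0.06, adjusted p = 1.0e-06) and mt-Co1 (−0.46 ± 0.06, adjusted p = 1.4e-06). The membrane-arm gene mt-Nd1, which fell by 0.30 in the Tfh sort, had 2245, 2306 and 2247 CPM in cycling cells of the reporter sort, against 2251, 2234 and 1953 CPM in non-cycling cells, and its groups overlapped (0.08, adjusted p = 0.24). Whether the sorts differ here was not tested.

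**Figure D2:**
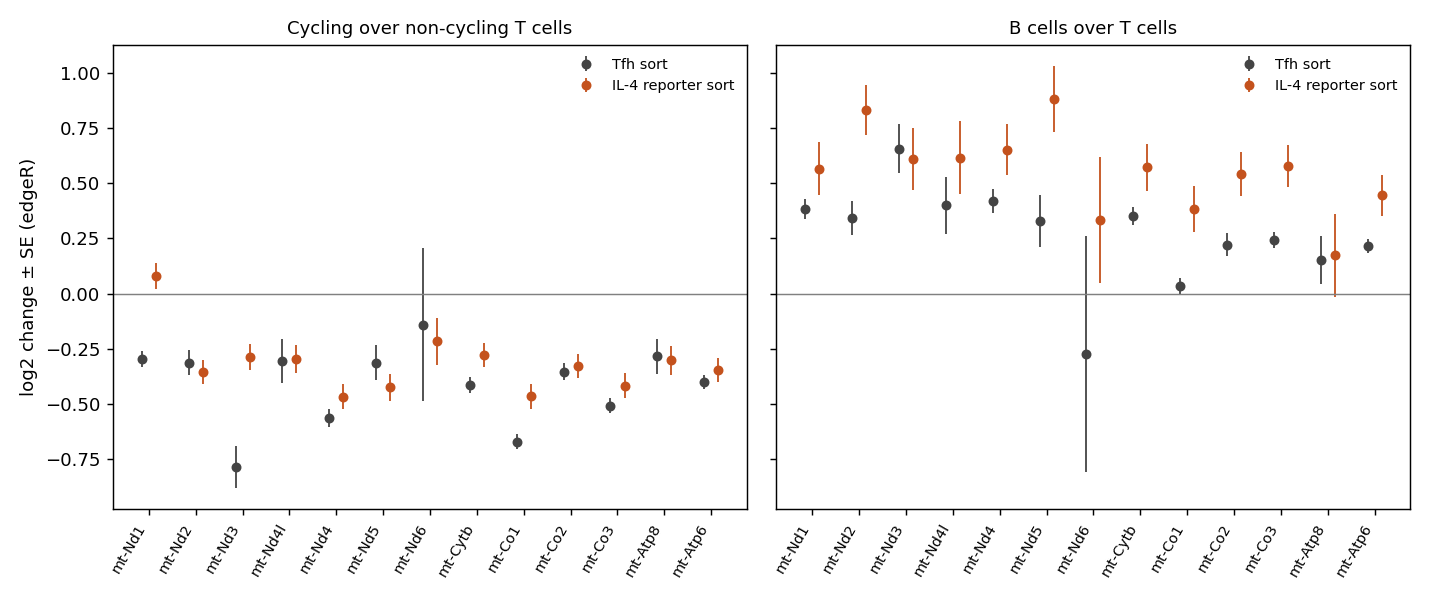
Log2 change of each mt- gene with its standard error (edgeR), in order of complex, for cycling over non-cycling T cells (left) and B cells over T cells (right), in the Tfh sort (grey) and the IL-4 reporter sort (orange). In the left panel all values but that of mt-Nd1 in the reporter sort lie below 0; in the right panel all but that of mt-Nd6 in the Tfh sort lie above 0.

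Complex II, which is wholly nuclear and links the chain to the citric acid cycle, held the nuclear member with the largest rise. Sdhd, one of its membrane anchors, had 88.3, 107 and 103 CPM in cycling cells of the Tfh sort, against 43.3, 44.0 and 52.6 CPM in non-cycling cells (log2 change 1.11 ± 0.12, adjusted p = 4.9e-10, edgeR). It had 129.8, 138 and 133 CPM in cycling cells, against 51.6, 48.8 and 49.3 CPM in the reporter sort (1.42 ± 0.07, adjusted p = 1.9e-11). Groups did not overlap in either sort. Sdhb, the iron-sulphur subunit, also rose in the Tfh sort, with 347, 363 and 357 CPM in cycling cells against 216, 249 and 253 CPM (0.58). Of the 4 complex II genes, 3 rose in each sort.

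Complex I, the entry point of electrons from NADH, rose in its core (5 of 7 and 7 of 7 core genes higher in the Tfh and reporter sorts, none lower) and in its accessory subunits (19 of 30 higher and 2 lower, and 26 of 30 higher and 1 lower). Ndufab1, an acyl carrier protein shared with mitochondrial fatty acid synthesis, had 247, 289.8 and 295 CPM in cycling cells of the reporter sort, against 116, 129 and 126 CPM in non-cycling cells (log2 change 1.16 ± 0.07, adjusted p = 9.5e-11, edgeR). Its change in the Tfh sort was 0.60. Ndufc2, a membrane subunit, had 289, 296 and 283 CPM in cycling cells of the Tfh sort, against 178, 192 and 185 CPM (0.65 ± 0.07). Of the assembly factors, which build the complex and do not stay in it, 2 of 7 rose in the Tfh sort and 6 of 7 in the reporter sort. The lowly expressed Ndufaf6 changed most among them (0.96 and 1.28).

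The lower side of complex I held Ndufa6, an accessory subunit that binds the acyl carrier protein. It had 236, 235 and 238 CPM in cycling cells of the Tfh sort, against 328, 336 and 331 CPM in non-cycling cells (−0.49, adjusted p = 1.6e-07, edgeR), and fell by 0.34 in the reporter sort. Ndufa7 fell by 0.32 in the Tfh sort; in the reporter sort its change was −0.14 with an adjusted p of 0.062.

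In complex III 6 of 8 genes rose and 1 fell in the Tfh sort, and 7 rose and 1 fell in the reporter sort. The one that fell was Uqcrh in both. It had 699, 678 and 697 CPM in cycling cells of the Tfh sort, against 919, 954 and 951 CPM in non-cycling cells (−0.45 ± 0.05, adjusted p = 3.9e-10, edgeR). Its levels in the reporter sort were 679, 618 and 658 CPM against 854, 841 and 808 CPM (−0.36 ± 0.06, adjusted p = 5.4e-05). Processed copies of such short genes elsewhere in the genome could take part of the reads, which was not tested.

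Complex IV, which reduces oxygen, split in the same way. Of its 11 tested genes in the Tfh sort 7 rose and 1 fell, and of 12 in the reporter sort 9 rose and 1 fell. Cox5a, a subunit on the matrix side, had 521, 508 and 534 CPM in cycling cells of the Tfh sort, against 339, 333 and 339 CPM in non-cycling cells (0.63 ± 0.06, adjusted p = 6.4e-12, edgeR), and 681, 729 and 689 CPM against 341, 354 and 331 CPM in the reporter sort (1.03 ± 0.06, adjusted p = 1.2e-10). The gene that fell in both sorts was Cox7a2l. It had 349, 349.9 and 339.9 CPM in cycling cells of the Tfh sort, against 534, 525 and 528 CPM (−0.61 ± 0.06, adjusted p = 1.8e-11), and 326, 275 and 315 CPM against 571, 534 and 525 CPM in the reporter sort (−0.83 ± 0.06, adjusted p = 4.6e-09). All cycling sums of Cox7a2l lay below all non-cycling ones.

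In complex V 13 of 16 genes rose and 1 fell in the Tfh sort, and 14 of 17 rose and 1 fell in the reporter sort. Atp5b had 808, 836 and 858 CPM in cycling cells of the reporter sort, against 437, 448 and 415 CPM (0.94 ± 0.06, adjusted p = 5.4e-10, edgeR). Atp5o, the connection between the catalytic head and the side stalk, had 429.9, 413 and 452 CPM in cycling cells of the Tfh sort, against 278, 269.7 and 307 CPM in non-cycling cells (0.60). The gene called lower in both was Atp5sl, named for likeness to a synthase gene and not a synthase subunit. It was low throughout, with 13.8, 10.7 and 10.4 CPM in cycling cells of the Tfh sort, against 19.7, 15.1 and 20.2 CPM (−0.61, adjusted p = 0.046).

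**Figure D3:**
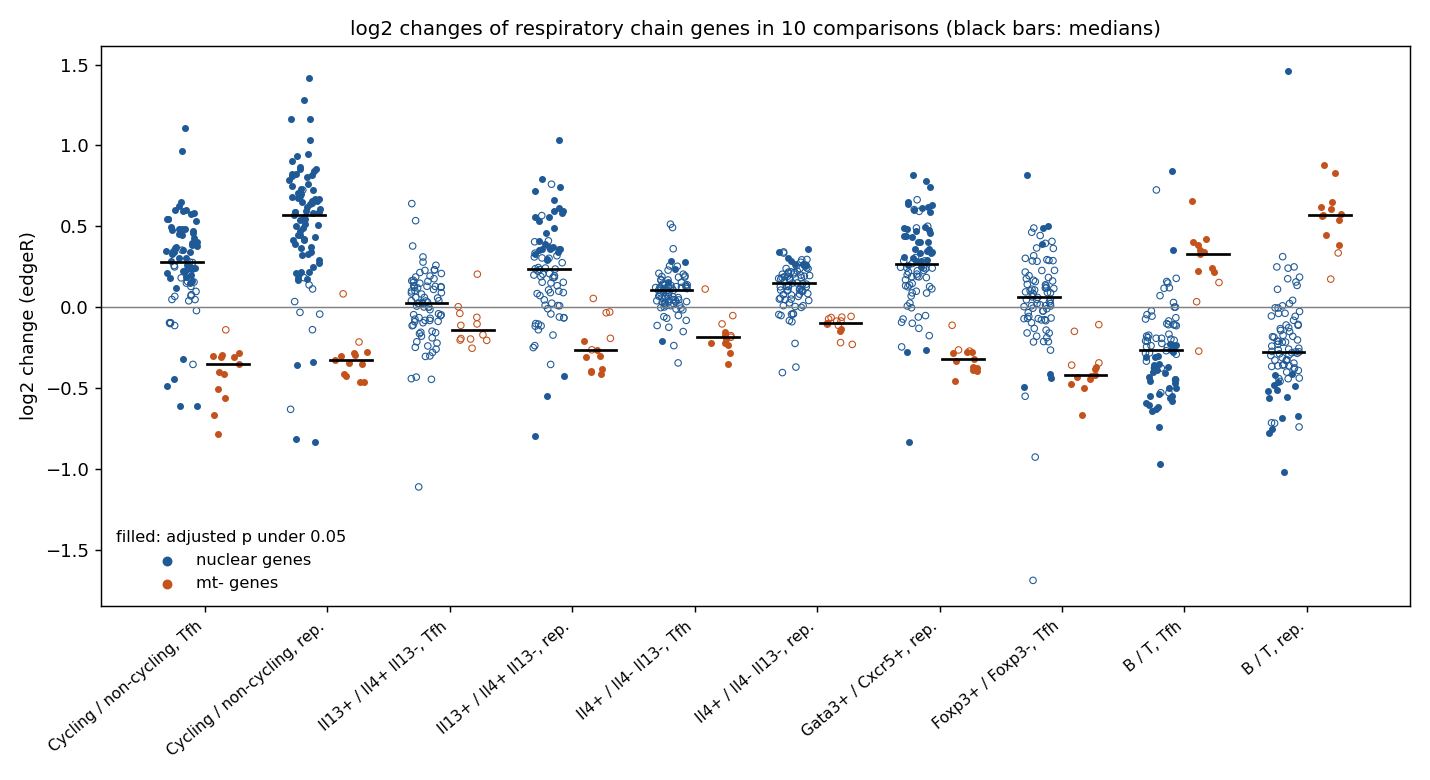
Log2 changes (edgeR) of the tested nuclear genes (blue) and mt- genes (orange) in the 10 comparisons, each group over the one set against it. Filled points passed an adjusted p of 0.05 and black bars are medians; the medians of the gene sets have opposite signs in every comparison, from 0.57 and −0.33 for cycling cells of the reporter sort to −0.28 and 0.57 for its B cells.

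Depth moved with cycling. Cycling cells had median totals of 8039, 7974 and 7267 UMIs per cell in the Tfh sort, against 2709, 2496 and 2691 in non-cycling cells, and 15151, 15848 and 17448 against 6104, 5863.5 and 5568 in the reporter sort. Even among non-cycling T cells alone, the shares changed with depth. The mt- share of the Tfh sort was 4.17%, 4.08% and 4.34% in the shallowest of 5 depth bins and 2.94%, 2.99% and 2.87% in the deepest, and the nuclear share was 2.22%, 2.23% and 2.21% in the shallowest and 2.97%, 2.86% and 2.93% in the deepest. The mt- share of the reporter sort was 5.81%, 6.63% and 5.90% in the shallowest bin and 5.15%, 5.21% and 5.11% in the deepest, and the nuclear share was 1.56%, 1.55% and 1.65% and then 2.38%, 2.32% and 2.36%. Between those bins the reporter mt- share did not fall evenly: in the second bin it was 6.13%, 6.24% and 6.20%. Cycling cells in the deepest bin had 2.56%, 2.51% and 2.62% mt- UMIs in the Tfh sort, and reporter ones had 4.34%, 4.21% and 4.37%, below non-cycling cells, but they were also deeper inside that bin (medians of 23151 to 25419 UMIs against 13553.5 to 14406 in the reporter sort). Where depths were closer, the reporter groups differed by bin, counted from the shallowest. In bin 2 cycling cells had 4.51%, 6.128% and 5.93% mt- UMIs, against 6.133%, 6.24% and 6.20%, lower in every mouse without overlap. Only 10, 11 and 23 cycling cells lay there, with medians of 5189.5 to 5689 UMIs against 5229 to 5449. The nuclear share was higher in cycling cells without overlap in bins 1, 2 and 4, and overlapped in bin 3. Cycling cells were deeper in bins 1 and 4. The mt- shares overlapped in bins 1, 3 and 4. The third bin had 5.92%, 5.87% and 5.95% mt- UMIs in cycling cells, against 5.69%, 6.10% and 5.95% in non-cycling cells, and the fourth 5.35%, 5.88% and 5.46% against 5.48%, 5.48% and 5.53%. In the Tfh sort the fourth bin had 3.10% and 3.18% in cycling cells of mice 2 and 3, against 3.26% and 3.40% in non-cycling cells of the same mice, and mouse 1 had under 10 cycling cells there. More UMIs can mean a larger cell or better capture, which the counts cannot tell apart. Across single T cells of each mouse the mt- share and the nuclear share had a Spearman correlation of −0.28, −0.29 and −0.29 for mice 1 to 3 of the Tfh sort, and −0.25, −0.30 and −0.24 for those of the reporter sort. The nuclear share and total UMIs had one of 0.47, 0.45 and 0.48 and of 0.63, 0.65 and 0.60. In these correlations the nuclear share was taken of the UMIs outside the mt- genes, unlike the shares given elsewhere, and the mt- share of all UMIs. They are descriptions over cells that share a lane, and both shares rest on the counts of the same cell.

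**Figure D4:**
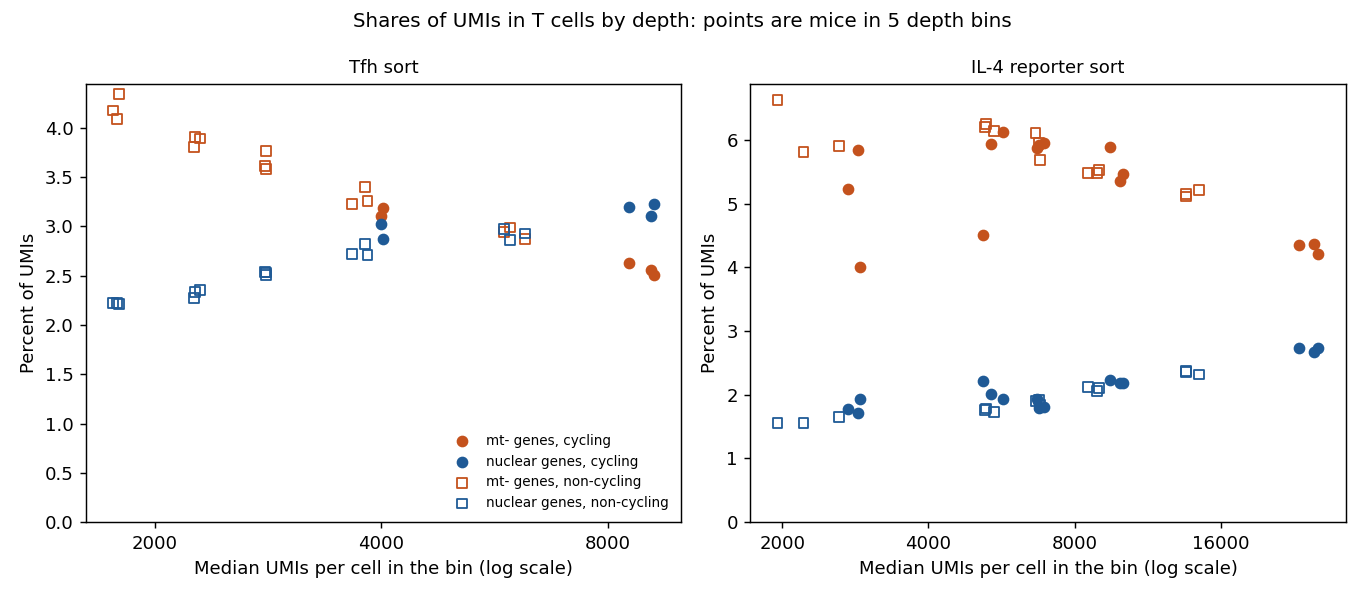
Percent of UMIs in the mt- genes (orange) and nuclear genes (blue) against the median UMIs per cell on a log axis, for cycling (filled) and non-cycling (open) T cells, each point a mouse in 1 of 5 depth bins, in the Tfh sort (left) and the IL-4 reporter sort (right). The open blue points climb with depth in both sorts; the open orange points fall in the Tfh sort, while in the reporter sort they are higher in the second bin than in the first in mice 1 and 3 (6.13% and 6.20%, over 5.81% and 5.90%) and lower in the deeper bins.

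When cycling and non-cycling cells were taken in equal numbers from the same depth bins, most calls were lost, in fits with fewer cells and genes. Among Tfh sort T cells 5 of 78 nuclear members were called higher and 4 lower (median 0.07), and 1 of 12 mt- genes lower (median −0.02). Over all 4560 genes of that fit 11.2% were called higher and 8.14% lower. Among reporter T cells 4 of 83 nuclear members were higher and 2 lower (median 0.04), and 7 of 13 mt- genes were still lower (median −0.17), beside 7.77% of 7698 genes higher and 5.2% lower. Members called higher were thus a smaller share than all genes in both sorts. Sdhd was then at 0.02 (adjusted p = 0.96, edgeR) and 0.39 (adjusted p = 0.062). Several falls kept their call. Cox7a2l stood at −0.45 (adjusted p = 0.0051) and −0.27 (adjusted p = 0.011), Uqcrh at −0.27 (adjusted p = 0.046) and −0.23 (adjusted p = 0.015), and mt-Co1 at −0.16 (adjusted p = 0.037) and −0.19 (adjusted p = 0.0076). Cox5a stood at 0.26 (adjusted p = 0.12) and 0.22 (adjusted p = 0.040). The signs of Ndufab1 (−0.14) and Ndufaf6 (−0.21) in the reporter sort, and of mt-Nd1 (0.16) and 4 other mt- genes in the Tfh sort, turned at matched depth, without a call. In addition, 8.40%, 6.80% and 6.59% of cycling cells of the Tfh sort held a Cd8a or Cd8b1 UMI, against 3.10%, 3.67% and 3.95% of non-cycling cells, and 12.4%, 12.3% and 12.6% against 6.54%, 6.48% and 5.67% in the reporter sort, and their part in the results was not tested.

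**Figure D5:**
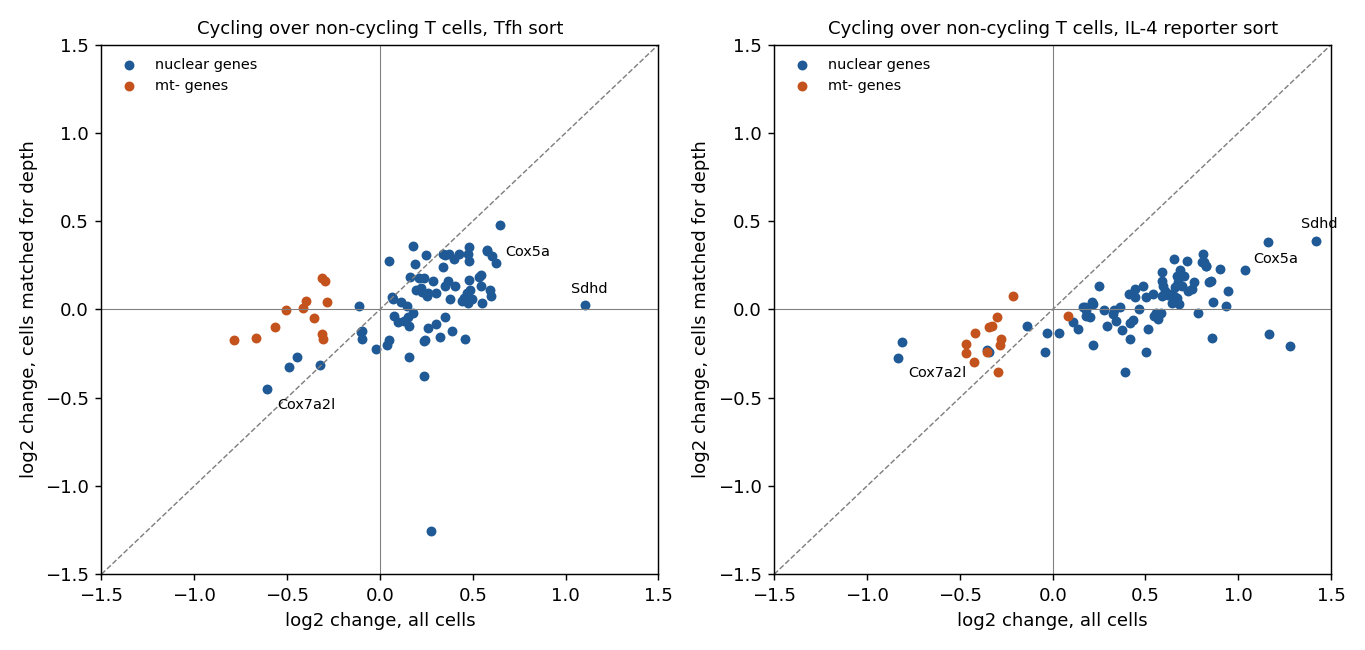
Log2 change of each member in cycling over non-cycling T cells, from all cells (horizontal) and from cells matched for depth (vertical), in the Tfh sort (left) and the IL-4 reporter sort (right); the dashed line marks equal values. Most nuclear genes lie under the line and near 0 on the vertical axis, Sdhd at 0.02 and 0.39, while Cox7a2l keeps −0.45 and −0.27.

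Lists of genes that serve the chain without being members were counted in the fits of all cells. There cycling cells were deeper, and counts of these lists at matched depth are not given here. The lists are read against the shares over all genes of those fits. These were 23.9% higher and 22.4% lower in cycling cells of the Tfh sort and 32.8% and 32.3% in those of the reporter sort. Of the mitochondrial ribosome, which makes the mt- proteins, 54 of 75 tested genes rose and 3 fell in the Tfh sort (median 0.59), and 71 of 76 rose and none fell in the reporter sort (median 0.76). Mrpl51 had 117, 116 and 146 CPM in cycling cells of the Tfh sort, against 49.9, 47.6 and 49.1 CPM in non-cycling cells (1.34 ± 0.12, adjusted p = 4.7e-13, edgeR). Of the citric acid cycle 7 of 13 and 11 of 13 rose and none fell. Fumarase (Fh1), which takes up the product of complex II, rose by 1.03 and 1.35, and Idh3a, a subunit of NAD-dependent isocitrate dehydrogenase, by 0.88 and 1.30. Cytochrome c1 (Cyc1), the electron carrier of complex III, rose by 0.91 and 1.24, and cytochrome c (Cycs) by 0.51 and 1.24. The list of cytochromes and assembly factors had 6 higher and 4 lower of 22 in the Tfh sort, near the shares over all genes, and 10 higher and 5 lower of 24 in the reporter sort. Ttc19, needed for complex III assembly, fell by 0.70 in both. Of the genes for mitochondrial DNA upkeep and transcription 4 of 11 rose and 1 fell in the Tfh sort, and 5 of 18 rose and 4 fell in the reporter sort, both shares there being under those over all genes. Tfam, which packs mitochondrial DNA and starts its transcription, rose by 0.67 in the Tfh sort. Of the uncoupling, inhibitor and antioxidant genes 3 of 8 rose and 2 fell in the Tfh sort and 4 rose and 2 fell in the reporter sort, among them Atpif1, the inhibitor of ATP synthase (0.46 and 1.08), and Prdx5, a peroxidase, which fell by 0.47 and 0.37.

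Among cytokine groups, the mt- share stepped down with type 2 cytokine UMIs in the reporter sort. It was 4.43%, 4.36% and 4.39% in Il13+ cells, 5.01%, 5.32% and 5.14% in Il4+ Il13- cells and 5.62%, 5.67% and 5.57% in Il4- Il13- cells. The nuclear share was 2.62%, 2.64% and 2.66% in Il13+ cells, 2.21%, 2.24% and 2.27% in Il4+ Il13- cells and 2.03%, 2.08% and 2.06% in Il4- Il13- cells. No 2 of these groups overlapped in either set. Tfh sort cells had an mt- share of 2.72% ± 0.190 in Il13+ cells, 3.08% ± 0.109 in Il4+ Il13- cells and 3.46% ± 0.140 in Il4- Il13- cells (SD, n = 3), and a nuclear share of 2.88% ± 0.133, 2.85% ± 0.0568 and 2.63% ± 0.0322 in the same order, where the first and second of these lie within their spread.

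Il13+ against Il4+ Il13- cells of the reporter sort had 28 of 83 nuclear members higher and 3 lower (median 0.24), against 13.6% of all 8858 genes higher and 14.5% lower with a median of −0.02 (edgeR's quasi-likelihood test, Benjamini-Hochberg). Of the mt- genes 8 of 13 fell and none rose (median −0.26). Sdhd had 119, 131 and 144 CPM in Il13+ cells, against 97.7, 69.5 and 75.5 CPM in Il4+ Il13- cells (0.74 ± 0.15, adjusted p = 0.00045), and Uqcr11, a small subunit of complex III, had 263, 274 and 269 CPM against 210.2, 163 and 163 CPM (0.61 ± 0.12, adjusted p = 0.00039). Complex III had the highest share of its tested genes called, 5 of 8 higher and 1 lower. The complex I assembly factors Ndufaf6, Ndufaf7 and Ndufaf2 rose by 1.03, 0.79 and 0.72, all 3 at low levels.

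The 3 that fell were Cox7a2l, Uqcrh and Ndufa6. Cox7a2l had 321, 269 and 270.0 CPM in Il13+ cells, against 506, 521 and 462 CPM in Il4+ Il13- cells (−0.80 ± 0.10, adjusted p = 1.1e-06, edgeR). Uqcrh had 649, 614 and 588 CPM against 973, 889 and 848 CPM (−0.55 ± 0.09, adjusted p = 3.7e-05). In both genes all Il13+ sums were below all others. Among mt- genes mt-Co1 fell by 0.41 and mt-Nd4 by 0.38.

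Depth and division moved with Il13 too. Il13+ cells of the reporter sort had medians of 12723 to 17888 UMIs, against 7445 to 7992 in Il4+ Il13- cells, and 49.2%, 56.5% and 61.1% of them were cycling, against 28.6%, 22.2% and 31.0%. At matched depth 5 of 80 nuclear members were called higher and 2 lower and 4 mt- genes lower, beside 5.46% of all 6133 genes higher and 5.98% lower. Without cycling cells 2 of 77 were higher and 2 lower and 1 mt- gene lower, beside 5.78% of 3964 genes higher and 4.57% lower. The nuclear counts were near or under these shares in both fits. Cox7a2l was at −0.32 (adjusted p = 0.044, edgeR) at matched depth and −0.43 (adjusted p = 0.037) without cycling cells, and Uqcrh at −0.32 (adjusted p = 0.011) and −0.37 (adjusted p = 0.029). Leaving out a mouse, which also leaves fewer sums to the fit, changed the counts. Without mouse 2 there were 13 nuclear calls and no mt- call, and without mouse 3 there were 11 nuclear calls.

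In the Tfh sort, where Il13+ cells numbered 27, 34 and 11, no member was called in either set by edgeR or by DESeq2. Over all 5808 genes tested 2.2% were called higher and 0.74% lower. At an unadjusted p under 0.05 there were 4 nuclear and 3 mt- genes, and the medians were 0.03 and −0.14. No gene of the other mitochondrial lists was called there. In the reporter sort fit of all cells, not matched for depth, the mitochondrial ribosome had 38 of 76 genes higher and 1 lower in Il13+ cells (median 0.46). The citric acid cycle had 4 of 13 higher, and Atpif1 rose by 0.67.

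T cells with Il4 and no Il13 were next set against those with neither. Within the Tfh sort 4 of 83 nuclear members rose and 1 fell in Il4+ Il13- against Il4- Il13- cells (median 0.10), beside 1.68% of all 7919 genes higher and 2.69% lower, and 8 of 13 mt- genes fell (median −0.19). Atp5f1, part of the side stalk of ATP synthase, had 453, 480.3 and 508 CPM in Il4+ Il13- cells, against 403, 402 and 414 CPM in Il4- Il13- cells (0.24 ± 0.06, adjusted p = 0.013, edgeR). The gene that fell was Cox7a2l (−0.21, adjusted p = 0.030). mt-Nd4 had 1433, 1546 and 1537 CPM against 1802, 1793 and 1918 CPM (−0.29 ± 0.04, adjusted p = 1.8e-05). Leaving out mouse 1, 2 or 3 gave 9, 2 and 0 nuclear calls, and without mouse 3 there were 4 mt- calls. DESeq2 called no nuclear member, with 6 at an unadjusted p under 0.05.

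Within the reporter sort 7 of 83 nuclear members rose and none fell (median 0.15), beside 3.03% of 8913 genes higher and 1.37% lower, and 3 mt- genes fell (median −0.10). Of the 7, 3 belonged to complex IV and 4 to complex V. Cox5a had 444, 492 and 486 CPM in Il4+ Il13- cells, against 366, 375 and 369.7 CPM in Il4- Il13- cells (0.36 ± 0.07, adjusted p = 0.0014, edgeR), and Atp5f1 had 586, 605 and 559 CPM against 458, 481 and 444 CPM (0.34 ± 0.07, adjusted p = 0.0011). The groups of both genes did not overlap. At matched depth no member of either set was called by edgeR in either sort, beside 0.851% of Tfh sort genes higher and 0.795% lower and 1.48% of reporter sort genes higher and 0.429% lower. There were 4 and 1 nuclear genes and 0 and 1 mt- genes at an unadjusted p under 0.05 in the Tfh and reporter sorts. Without mouse 2 or mouse 3 the nuclear calls of the reporter sort were 4 and 1 and no mt- gene was called.

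The count of the reporter sort moved with other choices too. Nuclear and mt- calls were 28 and 11 with an mt- limit of 20% (5.58% of all genes higher and 2.45% lower), 2 and 0 in a fit that left the mouse out as a block, 3 and 0 with DESeq2, and 0 and 0 by edgeR without cycling cells (0.456% of all genes higher and 0.0521% lower), where 9 and 3 had an unadjusted p under 0.05. Of the Il4+ Il13- cells 28.6%, 22.2% and 31.0% were cycling, against 11.2%, 12.5% and 14.6% of Il4- Il13- cells, and they had medians of 7445 to 7992 UMIs against 5680 to 6186. For the Tfh sort 15.6%, 15.5% and 15.2% of Il4+ Il13- cells were cycling, against 7.69%, 6.84% and 9.75% of Il4- Il13- cells, with medians of 3257 to 3589.5 UMIs against 2353.5 to 2657.5, and without cycling cells no nuclear member was called, with 13 at an unadjusted p under 0.05.

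Gata3, the master regulator of Th2 cells, and Cxcr5, the homing receptor of follicular helper cells, split the reporter T cells, with 650, 570 and 638 Gata3+ Cxcr5- cells and 85, 88 and 154 Cxcr5+ Gata3- cells. The mt- share was 4.80%, 4.69% and 4.78% in Gata3+ Cxcr5- cells, against 6.13%, 6.36% and 6.10% in Cxcr5+ Gata3- cells. The nuclear share was 2.38%, 2.49% and 2.44%, against 2.2%, 2.12% and 2.09%. In the Tfh sort, which was gated on CXCR5, no test of this split was made, and the mt- share was 3.01% ± 0.0511 in Gata3+ Cxcr5- cells and 3.29% ± 0.0433 in Cxcr5+ Gata3- cells, and the nuclear share 2.81% ± 0.0162 and 2.75% ± 0.0100 (SD, n = 3).

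Nuclear members called in the reporter sort were 35 of 83 higher and 3 lower in Gata3+ Cxcr5- cells (median 0.27), against 17.2% of 9692 genes higher and 15% lower with a median of −0.03, and 10 of 13 mt- genes fell (median −0.32). The calls were uneven over the roles. Complex V had 10 of 16 tested genes higher, complex IV 6 of 11 and complex III 4 of 8, each with 1 lower, and the accessory subunits of complex I 13 of 30. None of the 7 core subunits and none of the 7 assembly factors of complex I was called, although most of their changes were above 0. These were all 7 core subunits (median 0.19) and 6 of the assembly factors (median 0.50). The medians of complex V and complex IV were 0.29 and 0.26. Cox5a had 579, 656 and 602 CPM in Gata3+ Cxcr5- cells, against 367, 379 and 302 CPM in Cxcr5+ Gata3- cells (0.82 ± 0.10, adjusted p = 1.1e-07, edgeR). Atp5b had 687, 757 and 736 CPM against 454, 455 and 478 CPM (0.65 ± 0.09, adjusted p = 1.9e-06). Outside the members cytochrome c (Cycs) rose most among the called genes of its list, with 232, 284 and 241 CPM against 137, 121 and 108 CPM (1.05 ± 0.12, adjusted p = 4.1e-08). Of the mitochondrial ribosome 42 of 76 genes rose and none fell (median 0.42).

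Gata3+ Cxcr5- cells were deeper, with medians of 7681.5 to 8239.5 UMIs against 5471.5 to 6468, and 27.2%, 37.5% and 35.3% of them were cycling, against 16.5%, 12.5% and 11%. A Cd8a or Cd8b1 UMI stood in 7.54%, 8.25% and 8.62% of Gata3+ Cxcr5- cells, against 4.71%, 5.68% and 6.49% of Cxcr5+ Gata3- cells, and their part in the values was not tested. No nuclear member of 82 was called by edgeR at matched depth, where 5.33% of 7285 genes were higher and 2.8% lower, or without cycling cells, where 5.19% of 7611 were higher and 3.02% lower (7 and 4 members had an unadjusted p under 0.05), while 3 and 4 mt- genes were called. mt-Nd4 had 2455, 2356 and 2395 CPM in Gata3+ Cxcr5- cells, against 3341, 3462 and 3094 CPM (−0.46 ± 0.08, adjusted p = 2.6e-05, edgeR), and stood at −0.26 (adjusted p = 0.0059) at matched depth and −0.23 (adjusted p = 0.020) without cycling cells. Cycs stood at 0.43 (adjusted p = 0.043) and 0.54 (adjusted p = 0.0065). Cox7a2l, with 432, 347 and 387 CPM against 467, 484 and 459 CPM (−0.28, adjusted p = 0.030), stood at 0.15 (adjusted p = 0.36) at matched depth and 0.25 (adjusted p = 0.077) without cycling cells, so its direction did not hold. Without mouse 3 the nuclear calls were 20, and without mouse 1 the mt- calls were 6.

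Foxp3+ T cells, which include follicular regulatory cells, numbered 38, 29 and 13 in the Tfh sort. Their mt- share was 2.64%, 2.36% and 2.74%, against 3.22%, 3.29% and 3.31% in Foxp3- cells, and the nuclear share 2.87%, 3.04% and 3.01%, against 2.72%, 2.73% and 2.79%. Of 13 mt- genes 9 fell (median −0.42), beside 3.3% of all 7721 genes lower and 3.47% higher. mt-Co1 had 4058, 3368 and 3216 CPM in Foxp3+ cells, against 4912, 4936 and 5013 CPM (−0.48 ± 0.09, adjusted p = 0.00013, edgeR). Of 83 nuclear members 4 rose and 3 fell (median 0.06), both near these shares over all genes. The 4 that rose were Sdhd (0.82), Ndufab1 (0.50), Sdhb (0.49) and Atp5g1, which makes the ring of ATP synthase (0.39). Sdhb had 371, 398 and 379.8 CPM in Foxp3+ cells, against 256, 282 and 290.0 CPM, without overlap. The 3 that fell were Ndufa6 (−0.50), Uqcrh (−0.44) and Cox7a2l (−0.42).

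Foxp3+ cells also had higher medians of 4868 to 6227.5 UMIs, against 2668 to 2894, and 39.5%, 37.9% and 30.8% of them were cycling, against 10.0%, 10.9% and 12.4%. A Cd8a or Cd8b1 UMI stood in 10.53%, 13.8% and 23.1% of Foxp3+ cells, against 3.55%, 3.75% and 4.14% of Foxp3- cells, and the part of these cells in the Foxp3 values was not tested. At matched depth no member was called by edgeR, where 1.63% of 5695 genes were higher and 0.86% lower, and none without cycling cells (where mouse 3 gave no sum), with 0.185% of 7573 genes higher and 0.0132% lower. Without cycling cells Sdhd stood at −0.34 and Ndufab1 at −0.27, turning sign. At an unadjusted p under 0.05 there were 5 nuclear and 3 mt- genes at matched depth and 3 and 6 without cycling cells. DESeq2 called no nuclear member, with 11 at an unadjusted p under 0.05. The copper chaperone Cox17, which loads complex IV and is not a member, fell by 0.67 and stood at −0.52 at matched depth (adjusted p = 0.023, edgeR). Without mouse 1 and without mouse 2 no nuclear member was called, and without mouse 2 there was 1 mt- call. Reporter Foxp3+ cells numbered 11, 6 and 7, too few for sums, and their mt- share was 4.72% ± 0.515 (SD, n = 3).

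B cells turned the balance round. Their nuclear share was 2.00%, 1.93% and 1.93% in the Tfh sort, against 2.73%, 2.75% and 2.80% in T cells of the same mice, and 1.72%, 1.53% and 1.89% in the reporter sort, against 2.27%, 2.36% and 2.32%. The mt- share was 3.10%, 3.46% and 3.40% in B cells of the Tfh sort, against 3.19%, 3.25% and 3.29% in T cells, where the groups overlapped. It was 6.42%, 6.72% and 6.14% in B cells, against 5.12%, 5.02% and 5.08%, in the reporter sort, without overlap. The mt- to nuclear ratio was 1.70 ± 0.132 in B cells and 1.18 ± 0.00984 in T cells of the Tfh sort (SD, n = 3), and 3.79 ± 0.573 and 2.19 ± 0.0653 in the reporter sort.

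In the edgeR fit with TMM scaling, 36 of 83 nuclear members were lower and 2 higher in B cells of the Tfh sort (median −0.27), against 17.5% of 8053 genes lower and 19.7% higher, and 10 of 13 mt- genes were higher with none lower (median 0.33). For the reporter sort 14 of 86 were lower and 1 higher (median −0.28), against 12.5% of 10220 genes lower and 11.4% higher, and 11 of 13 mt- genes were higher (median 0.57). The mt- counts of the Tfh sort depended on the scaling. With plain totals, an alternative chosen after the data were seen, the median of all genes moved to −0.21 and −0.28, the nuclear members to 62 lower and 1 higher in the Tfh sort (26.9% and 14.2% of all genes) and to 39 lower and 1 higher in the reporter sort (18.4% and 8.83%), and the mt- genes to 4 higher and 1 lower in the Tfh sort and 10 higher and none lower in the reporter sort. Without mouse 1 of the reporter sort there were 3 nuclear calls.

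The nuclear genes that fell in both sorts numbered 9 (9 of 36 and of 14): Atp5g3, Atp5h, Atp5j, Atp5j2, Ndufa5, Ndufb6, Ndufb9, Ndufv3 and Uqcr10. Ndufa5, an accessory subunit of the matrix arm of complex I, had 97.1, 99.9 and 112 CPM in B cells of the Tfh sort, against 211, 189.7 and 199.9 CPM in T cells (−0.97 ± 0.13, adjusted p = 1.4e-05, edgeR). Its reporter sort levels were 74.6, 85.7 and 98.5 CPM in B cells against 118, 131 and 127 CPM (−0.52 ± 0.20, adjusted p = 0.049). Every B cell sum was below every T cell sum. Atp5h, the d subunit of the side stalk, had 408, 344 and 358 CPM in B cells of the Tfh sort against 570.2, 575 and 573 CPM (−0.63 ± 0.09, adjusted p = 1.7e-05), and 514, 388 and 534 CPM against 669, 629 and 615 CPM in the reporter sort (−0.41 ± 0.15, adjusted p = 0.036). In the Tfh sort 12 of 16 complex V genes and 12 of 30 accessory subunits of complex I fell. No complex II gene was called, but all 4 had changes below 0. Their median was −0.29, beside −0.26 for the accessory subunits, and 2 had an unadjusted p under 0.05 (edgeR).

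No nuclear member was called higher in B cells of both sorts. Ndufaf4, an assembly factor of complex I, had 45.6, 41.6 and 53.3 CPM in B cells of the Tfh sort, against 29.0, 24.3 and 24.3 CPM (0.84 ± 0.22, adjusted p = 0.0069, edgeR). Uqcrfs1, the Rieske iron-sulphur protein of complex III, had 252, 283 and 223 CPM against 197, 198 and 198 CPM (0.35 ± 0.11, adjusted p = 0.018). The one of the reporter sort was Atp5sl, with 35.9, 49.6 and 33.8 CPM in B cells against 14.1, 12.6 and 14.3 CPM (1.46 ± 0.30, adjusted p = 7.1e-05).

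The largest rises among mt- genes in B cells were of complex I genes, though not of all of them: mt-Nd6 was the lowest mt- gene in the Tfh sort (−0.27, not called). In the reporter sort mt-Nd5, a proton-pumping subunit, had 724, 766 and 658 CPM in B cells, against 424, 368 and 373 CPM in T cells (0.88 ± 0.15, adjusted p = 1.1e-06, edgeR), and mt-Nd2 had 4523, 4783 and 4104 CPM against 2650.5, 2466 and 2416 CPM (0.83 ± 0.11, adjusted p = 2.3e-09). In the Tfh sort mt-Nd3 led, with 219.9, 261 and 228 CPM against 138, 158 and 154 CPM (0.66 ± 0.11, adjusted p = 0.00015). mt-Co1 was lowest of those called in the reporter sort (0.38) and at 0.03 (adjusted p = 0.56) in the Tfh sort, with 4403, 4427 and 4724 CPM in B cells against 4368, 4384 and 4489 CPM. mt-Atp6 rose by 0.21 in the Tfh sort with TMM scaling and stood at −0.00065 with plain totals.

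B cells were shallower, with medians of 2069 to 2179.5 UMIs in the Tfh sort, against 2684 to 2922 in T cells, and 4426.5 to 4749.5 against 6494 to 6903 in the reporter sort. Fewer of them were cycling: 4.49%, 5.19% and 3.33% of B cells in the Tfh sort, against 10.98%, 11.47% and 12.75% of T cells. In the reporter sort the shares were 8.33%, 4.55% and 15.38%, against 19.83%, 25.53% and 22.99%. B cells and T cells were not compared without cycling cells, so the part of cycling cells in these values was not tested. At matched depth the Tfh sort kept 19 of 78 nuclear members lower and 2 higher, with 4 mt- genes higher and 1 lower, beside 19.1% of all genes lower and 22% higher; the mt- gene that was lower was mt-Co1 (−0.18, adjusted p = 0.0082, edgeR). In the reporter sort no nuclear member was lower and 4 were higher at matched depth (median −0.02), beside 15.2% of all genes lower and 14.8% higher, so its lower nuclear values did not hold there, while 11 mt- genes stayed higher (median 0.48). Ndufa5 stood at −0.89 (adjusted p = 0.0013) in the Tfh sort and −0.15 (adjusted p = 0.61) in the reporter sort. Of B cells 17.4%, 19.3% and 16.0% in the Tfh sort held 2 or more UMIs of Lyz2, C1qa, C1qb, C1qc and Apoe, which mark macrophages, against 0.546 to 0.840% of T cells, and those genes summed to 339.5 to 671 CPM in B cells, against 116 to 194 CPM in T cells, with up to 3 of the 5 at 0 in a B cell sum. Of reporter sort B cells 20%, 25% and 15.4% did, against 0.793 to 3.05% of T cells. Plasma cell markers (Jchain and Xbp1 among them) summed to 671 to 6097 CPM in B cells of the Tfh sort, against 198 to 251 CPM in T cells. Their part in the B cell values was not tested.

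In the mitochondrial ribosome 11 of 75 genes rose and 8 fell in B cells of the Tfh sort (median 0.03), both shares under the 19.7% and 17.5% of all genes called higher and lower. Among them were Mrps18b, with 81.2, 72.1 and 53.3 CPM in B cells against 25.5, 23.9 and 19 CPM (1.60 ± 0.20, adjusted p = 5.2e-06, edgeR), and Mrps6, with 11.9, 16.6 and 22.8 CPM against 66.8, 62.6 and 50.3 CPM (−1.85 ± 0.28, adjusted p = 4.3e-05). For the reporter sort none of 76 rose and 6 fell (median −0.13), also under the 11.4% and 12.5% of all genes, Mrps6 again among the 6 (−1.52). Cox20, an assembly factor of complex IV that guards mt-Co2, was lower in B cells of both sorts (−0.96 and −0.69). Of the citric acid cycle 1 rose and 3 fell in the Tfh sort and 1 rose and 2 fell in the reporter sort, with Fh1 the one that rose in both (0.61 and 0.57).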

How the data were processed

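The deposited matrices hold UMI counts per gene and cell, made by the authors from 10x 3′ libraries aligned to mm10/GRCm38 with Cell Ranger 2.2.0, per the submitters' processing notes (bcl2fastq 2.18.0.12 and 2.20.0.422 are also named); the header of the reporter matrix gives Cell Ranger 3.0.2. The annotation release is not given in the sources used here. Hashtag counts were deposited by the authors beside them. The labels speak of more hashtags than the 3 that held counts in each sort.

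Cells with 500 or more genes and at most 10% mt- UMIs were kept, and a cell belonged to a mouse if that hashtag had 10 or more counts and 3 times the next. This removes doublets between mice; no doublet caller was run, and doublets within a mouse stay. T cells had 2 or more UMIs of Cd3d, Cd3e, Cd3g, Trbc1 and Trbc2 and over 3 times their sum of B cell markers (Cd79a, Cd79b and Ms4a1 among them; 1 is not reported here), and B cells the reverse. Groups defined by a UMI favour deeper cells. Counts were summed per mouse and group (10 or more cells, the smallest sum 64269 UMIs) and tested in edgeR 4.0.16 (R 4.3.3, limma 3.58.1) with TMM scaling, a filterByExpr floor of 10 counts and glmQLFTest, called at an adjusted p of 0.05. Each main fit had 6 sums and 2 residual degrees of freedom. Fits in which a mouse was left out or gave no sum had fewer of both. Fits without the block had more residual degrees of freedom. The mouse is a block because the same animal gives both groups; mice are the replicates. SE is the absolute log2 change over the square root of F, an approximation. CPM beside a test are scaled by TMM; shares and the levels over all T cells use plain totals. Named genes were, per comparison, up to 8 nuclear members in each direction by size of change, all mt- genes past the threshold, and up to 2 genes in each direction of every other list, with all 3 mice alike and 10 CPM or more; Ndufa7, mt-Nd1 in the reporter sort and mt-Co1 in Tfh sort B cells were added after their values were seen.

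Members and lists were chosen with earlier results of these data known. Alternatives were DESeq2 1.42.0, DESeq2's size factors in edgeR, no filter, no replicate block, totals without mt- genes, cells matched for depth, no cycling cells, a 20% mt- limit, other UMI thresholds and leaving out each mouse; plain totals were added after seeing the data. The main fits were run on simulated data with a single spread for all genes. They recovered 73% and 84% of 2-fold changes for cycling (Tfh and reporter sort), 45% and 50% for Il13 and 63% and 57% for Il4. Recovery was 61% for Gata3, 27% for Foxp3 and 43% and 34% for B cells (Tfh and reporter sort). Of 4-fold changes 70% to 96% were recovered. Tables were joined with Python 3.11.15, numpy 2.4.6, scipy 1.17.1 and pandas 2.3.3.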

Additional observations from a re-analysis of the deposited data

Results flagged for a closer look

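For 4 genes every mouse of one sort moved one way and every mouse of the other sort the opposite way, and in each case the difference between sorts was not tested. Ndufa13, an accessory subunit of complex I, had a log2 change of −0.10 in cycling against non-cycling T cells of the Tfh sort (adjusted p = 0.158, edgeR) and 0.16 in the reporter sort (adjusted p = 0.0299). The complex I assembly factor Ndufaf2 had −0.26 in Il13+ against Il4+ Il13- T cells of the Tfh sort (adjusted p = 0.896, edgeR) and 0.72 in the reporter sort (adjusted p = 0.0134). Ndufc1, a small membrane subunit of complex I, had −0.45 (adjusted p = 0.354, edgeR) and 0.37 (adjusted p = 0.0272) in the same comparison. Atp5g2, which encodes the ring of ATP synthase, had −0.31 in B cells against T cells of the Tfh sort (adjusted p = 0.0175, edgeR) and 0.11 in the reporter sort (adjusted p = 0.668).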

How the results depend on the processing

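Counts of calls (nuclear, then mt- genes) were 60 and 12 in cycling cells of the Tfh sort, 76 and 11 in those of the reporter sort, 31 and 8 for Il13 in the reporter sort and 0 and 0 in the Tfh sort, 5 and 8 for Il4 in the Tfh sort, 7 and 3 for Il4 in the reporter sort, 38 and 10 for Gata3 against Cxcr5, 7 and 9 for Foxp3, 38 and 10 for B cells of the Tfh sort and 15 and 11 for those of the reporter sort. Matched depth, which uses fewer cells and genes, gave 9 and 1 (Tfh sort) and 6 and 7 (reporter sort) for cycling, 7 and 4 for Il13, 0 and 0 for Il4 in both sorts, 0 and 3 for Gata3, 0 and 0 for Foxp3, 21 and 5 for B cells of the Tfh sort and 4 nuclear genes for those of the reporter sort. Without cycling cells, also fewer, the counts were 4 and 1 for Il13 in the reporter sort and 1 nuclear gene in the Tfh sort, 0 nuclear for Il4 in the Tfh sort, 0 and 0 in the reporter sort, 0 and 4 for Gata3 and 0 and 0 for Foxp3. What of this comes from power was not tested.

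DESeq2 gave 12 nuclear calls for Il13, 0 for Il4 in the Tfh sort, 3 and 0 for Il4 in the reporter sort, 24 for Gata3, 0 for Foxp3, 19 and 4 for B cells of the Tfh sort and 4 for those of the reporter sort. Plain totals gave 11 nuclear calls for Il4 in the Tfh sort, 7 mt- calls for Il4 in the reporter sort, 11 for Foxp3, 63 and 5 for B cells of the Tfh sort and 40 for those of the reporter sort. Without the filter there were 3 and 5 for Il4 in the reporter sort, 6 mt- for Gata3 and 4 nuclear for Foxp3. The 20% mt- limit gave 4 mt- calls for Il13 and 28 and 11 for Il4 in the reporter sort, and the other UMI threshold 0 mt- for the last. Without the replicate block, the pairing being the mouse itself, there were 3 nuclear calls for Il4 in the Tfh sort, 2 and 0 in the reporter sort and 11 for Foxp3; no other count moved by over 1.5 times.

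Leaving out each mouse gave ranges of nuclear and mt- calls of 44 to 59 and 10 to 12 (cycling, Tfh sort), 71 to 74 and 10 to 11 (cycling, reporter sort), 0 to 0 and 0 to 0 (Il13, Tfh sort), 11 to 41 and 0 to 8 (Il13, reporter sort), 0 to 9 and 4 to 8 (Il4, Tfh sort), 1 to 9 and 0 to 3 (Il4, reporter sort), 20 to 38 and 6 to 10 (Gata3), 0 to 9 and 1 to 8 (Foxp3), 26 to 36 and 8 to 9 (B cells, Tfh sort) and 3 to 11 and 8 to 11 (B cells, reporter sort). The threshold of 2 Foxp3 UMIs was not run for want of cells.

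Of 2923 values of 252 named results, 2319 kept direction and call, 578 lost the call and 26 changed sign, each with an adjusted p above 0.05 there (edgeR). At matched depth these were, in cycling cells of the Tfh sort, mt-Atp6 0.0484, mt-Atp8 0.0409, mt-Cytb 0.00912, mt-Nd1 0.16 and mt-Nd5 0.18. In those of the reporter sort they were Ndufab1 −0.14, Ndufaf6 −0.21 and Prdx3 −0.34. For Il4 in the Tfh sort they were mt-Atp6 0.0032 and mt-Co1 0.0047, and Ucp2 for Il13 in the reporter sort stood at 0.0295, or 0.27 without cycling cells. For Gata3 they were Cox7a2l 0.15, Fh1 −0.13 and Prdx3 −0.12, and without cycling cells Cox7a2l 0.25, Uqcrh 0.0202, Ndufa12 −0.10, Sdhd −0.16, mt-Co1 0.0031, Fh1 −0.0362 and Prdx3 −0.13. For Foxp3 without cycling cells they were Ndufab1 −0.27, Sdhd −0.34 and Mrpl12 −0.38, and mt-Atp6 in B cells of the Tfh sort stood at −0.00065 with plain totals. The cause was not tested.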
